A study of Mus musculus with 12 samples.

Results

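The NF-kB family consists of transcription factors that share a Rel homology domain, the part that binds DNA and pairs one subunit with another. Its genes in the mouse are Nfkb1, Nfkb2, Rel, Rela and Relb. All probe sets listed with the single symbol of 1 of these genes were taken, and they numbered 5, from 4 of 18193 genes with such a probe set: 2 for Nfkb2 and 1 each for Rel, Rela and Relb. Nfkb1, whose product p105 is processed to p50, was not analysed here. On GRCm38.p6 the genes lie at chr19:46300994-46312400 (Nfkb2), chr11:23736847-23770969 (Rel), chr19:5637442-5648134 (Rela) and chr7:19606217-19629438 (Relb), per RefSeq.

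The cells were mouse embryonic fibroblasts from animals with a kinase-dead form of IRAK4 or from wild-type animals, measured on 12 one-colour arrays. IRAK4 is the kinase that links the activated interleukin-1 receptor and its adaptor MyD88 to the downstream cascade. The kinase-dead groups were unstimulated cells grown for 4 h, cells given 1 ng/ml mouse interleukin-1 beta (IL-1b) for 1 h and cells given it for 4 h, and the wild-type groups were the same 3, with 2 arrays in each of the 6 groups. The labels name no strain, age, allele or number of embryos. The design speaks of biological replicates and names no separate cultures or animals, so p-values measure the spread between these arrays. The title of wild-type unstimulated replicate 1 names no genotype, and it was placed as wild type because the design gives 6 arrays to each genotype. Both stimulated times share the unstimulated 4 h control of their genotype, so at 1 h the time in culture differs along with IL-1b.

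In a resting cell, dimers of RelA (p65, the Rela product), c-Rel (the Rel product) and p50 are held in the cytoplasm by IkB proteins. A signal such as IL-1 activates the IKK kinases, IkB is degraded and the dimers enter the nucleus; this canonical route needs no new subunit mRNA. RelB pairs mainly with p52, which is made by trimming p100, the Nfkb2 product, in a slower non-canonical route controlled by the kinase NIK. RelA, c-Rel and RelB carry activation domains, whereas p100 and p105 end in IkB-like ankyrin repeats and can themselves retain other subunits. The genes Nfkb2 and Relb are known targets of NF-kB, so a canonical signal can raise the components of the slower route.

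Signals are MAS5 values on a linear scale in which every array has the same trimmed mean of 150. Fold changes were taken on log2(signal + 8), a scale on which low signals appear to change less than they do. Tests covered the 27086 probe sets that reached a signal of 25.5, the overall median, on 2 or more arrays. A change counts as called when its adjusted p from limma (Benjamini-Hochberg over the 27086) was under 0.05. Of the 5 NF-kB subunit probe sets, 4 passed the low-signal filter. The Rel probe set reached 25.5 on 1 array and was not tested. Levels of different genes are not compared, since each probe set has its own brightness.

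The 14 fibroblast markers checked were all past the filter, and their summed signal was 35201 to 38210 in kinase-dead cells and 34415 to 40192 in wild-type cells. Of 11 macrophage markers, 8 passed the filter. Their summed signal was 660 to 776 in kinase-dead cells and 285 to 319 in wild-type cells; none of the 11 was listed at 0. All 6 neural markers passed, with a summed signal of 645 to 748 in kinase-dead cells and 387 to 475 in wild-type cells. None of 5 lymphocyte markers with a probe set passed, against 3 of 6 endothelial, 2 of 6 epithelial and 2 of 4 skeletal muscle markers. The ratio of actin signal at the 3' end over the 5' end rises as RNA is degraded. It was 2.85 ± 0.0178 in unstimulated kinase-dead cells (SD, n = 2). The other 5 groups had means of 2.36 to 2.49, with single arrays from 2.14 to 2.68. The same ratio for Gapdh was 1.53 ± 0.069 in unstimulated kinase-dead cells and was highest, at 1.67 ± 0.019, in kinase-dead cells at 1 h. In bulk RNA, fewer cells of a type and less RNA per cell cannot be told apart.

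The promoter windows of Nfkb2 and Rela are shown because these are the members with a window that passed the test after 4 h of IL-1b in wild-type cells. RefSeq annotation on GRCm38.p6 gave a window of 300 bases, 250 before and 50 after each start site, for 3 starts of Nfkb2, 1 of Rel and 1 of Rela; no Relb window was used here. Letters like the kB element bound by NF-kB were searched on both strands as GGNNNTTCC, which 18.5% of all 32851 windows hold, and as the stricter GGANTTTCC, nested in it, which 1.25% hold. The AP-1 type letters TGANTCA are in 7.81% of windows. Capitals below mark matches to GGNNNTTCC on either strand. The first Nfkb2 window lies at chr19:46304487-46304786 and the next at chr19:46305445-46305744, both on the forward strand, and the Rela window at chr19:5637291-5637590, also forward.
Nfkb2 first start: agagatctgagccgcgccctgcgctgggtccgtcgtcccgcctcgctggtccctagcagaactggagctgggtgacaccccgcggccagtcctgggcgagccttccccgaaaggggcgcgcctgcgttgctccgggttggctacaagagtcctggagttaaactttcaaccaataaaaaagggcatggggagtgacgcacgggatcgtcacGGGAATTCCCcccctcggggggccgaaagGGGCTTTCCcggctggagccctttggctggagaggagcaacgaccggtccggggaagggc
Nfkb2 next start: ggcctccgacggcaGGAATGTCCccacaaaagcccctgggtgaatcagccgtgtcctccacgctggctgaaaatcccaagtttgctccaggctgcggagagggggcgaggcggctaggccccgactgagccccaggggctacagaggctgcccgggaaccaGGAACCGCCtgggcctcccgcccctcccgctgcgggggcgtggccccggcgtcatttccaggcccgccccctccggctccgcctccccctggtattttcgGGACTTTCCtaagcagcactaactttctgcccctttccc
Rela start: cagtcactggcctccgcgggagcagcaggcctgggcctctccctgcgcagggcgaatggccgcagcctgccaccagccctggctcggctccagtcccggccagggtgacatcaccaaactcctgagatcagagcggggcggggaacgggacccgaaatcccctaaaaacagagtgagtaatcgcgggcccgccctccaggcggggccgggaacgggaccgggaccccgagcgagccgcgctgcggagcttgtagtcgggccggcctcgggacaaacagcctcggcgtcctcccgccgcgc

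The first Nfkb2 window holds 3 matches, counting positions in bases from the start: GGGAATTCC at -39 to -31, GGAATTCCC overlapping it on the opposite strand at -38 to -30, and GGGCTTTCC at -10 to -2. The next Nfkb2 window also holds 3, and 1 of these, GGACTTTCC at 12 to 20 after the start, fits the stricter letters too. That same genomic stretch, chr19:46305706-46305714, falls at -224 to -216 from the last annotated Nfkb2 start. The Rel window, chr11:23770920-23771219 on the reverse strand, holds 1 match, GGAAATCCC, at -91 to -83. In the Rela window none of the searched letters occur. A TGANTCA match occurs once among these windows, in the next Nfkb2 window at -210 to -204. These matches describe letters in a window and are not evidence of binding.

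**Figure D1:**
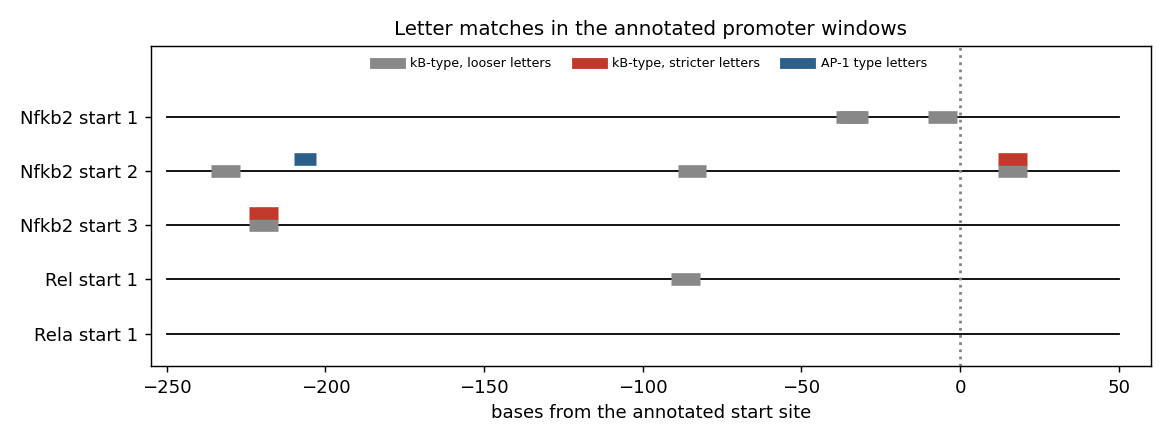
Letter matches in the annotated promoter windows of 3 member genes, placed by distance in bases from the annotated start site (dotted line), with grey bars for GGNNNTTCC, red for GGANTTTCC and blue for TGANTCA on either strand. The 3 Nfkb2 windows and the Rel window hold kB-type matches and the Rela window holds none.

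Relb, the gene of the non-canonical subunit RelB, was highest at 4 h in both genotypes and lower in kinase-dead than in wild-type cells at 1 h. In kinase-dead cells its signal was 36.4 and 60.4 on the unstimulated arrays, 29.7 and 34.3 after 1 h of IL-1b and 103.4 and 99 after 4 h. In wild-type cells it was 59.5 and 48.9 unstimulated, 84.2 and 102 after 1 h and 168.6 and 144 after 4 h. Thus both wild-type 1 h arrays lay above their control, while both kinase-dead 1 h arrays lay below theirs. By group mean the order from high to low was wild type at 4 h, kinase dead at 4 h, wild type at 1 h, wild type unstimulated, kinase dead unstimulated and kinase dead at 1 h. Kinase-dead cells at 4 h and wild-type cells at 1 h overlapped, and so did the unstimulated groups.

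Nfkb2, which encodes p100 and p52, has a pair of probe sets, and they did not give the same picture. The probe set with suffix a_at read 20.7 and 47.2 in unstimulated kinase-dead cells, 41.7 and 32.4 after 1 h and 47.6 and 27.7 after 4 h. The same probe set read 23.8 and 20.8 in unstimulated wild-type cells, 42.3 and 47.2 after 1 h and 120 and 89.5 after 4 h. The 3 kinase-dead groups overlapped each other, whereas the 3 wild-type groups separated completely. Groups of 2 arrays can separate by chance, and the share of all probe sets that do so was not taken into account. At 4 h the difference of the responses, kinase dead minus wild type, did not pass limma (-1.72, adjusted p = 0.0669). The probe set with suffix x_at read 33.3 and 49.4, 36.6 and 15.7, and 50.2 and 67.2 in kinase-dead cells that were unstimulated, at 1 h and at 4 h. Its wild-type signals were 80.6 and 78.6 unstimulated, 70.3 and 35.8 at 1 h and 61.7 and 75.3 at 4 h. Here the highest group was unstimulated wild type, the group lowest for the other probe set. In Affymetrix naming the suffix x marks probes that may also bind other transcripts. Over the 12 arrays the log2 signals of the Nfkb2 probe sets had a Pearson correlation of 0.13, and which of them follows Nfkb2 mRNA was not tested.

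Rela, the gene of the canonical activator p65, had the smallest standard error of the 4 tested probe sets. Its kinase-dead signals were 89.6 and 78.5 unstimulated, 131.3 and 114 after 1 h and 112.6 and 127.2 after 4 h. Its wild-type signals were 125.2 and 137 unstimulated, 180.8 and 155.3 after 1 h and 195.7 and 210.9 after 4 h. In each of the 3 conditions both kinase-dead arrays lay below both wild-type arrays, though at 1 h the difference did not pass limma (adjusted p = 0.114). Separation of 2 arrays from 2 can arise by chance, and the share of all probe sets that separate likewise was not taken into account. The stimulated kinase-dead groups overlapped unstimulated wild type, and unstimulated kinase-dead cells were below every other group. Rel, the gene of c-Rel, read 1.5 to 25.8 over the 12 arrays with a median of 14.8. Its group means were 10.9 ± 6.72, 13.7 ± 17.2 and 11 ± 4.24 in kinase-dead cells that were unstimulated, at 1 h and at 4 h, and 10.4 ± 10.9, 22.3 ± 3.54 and 10 ± 11.7 in wild-type cells (SD, n = 2). The 6 Rel groups overlapped in most pairs, wild type at 1 h (24.8 and 19.8) stood above the other 2 wild-type groups, and most of these signals are below the filter level.

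**Figure D2:**
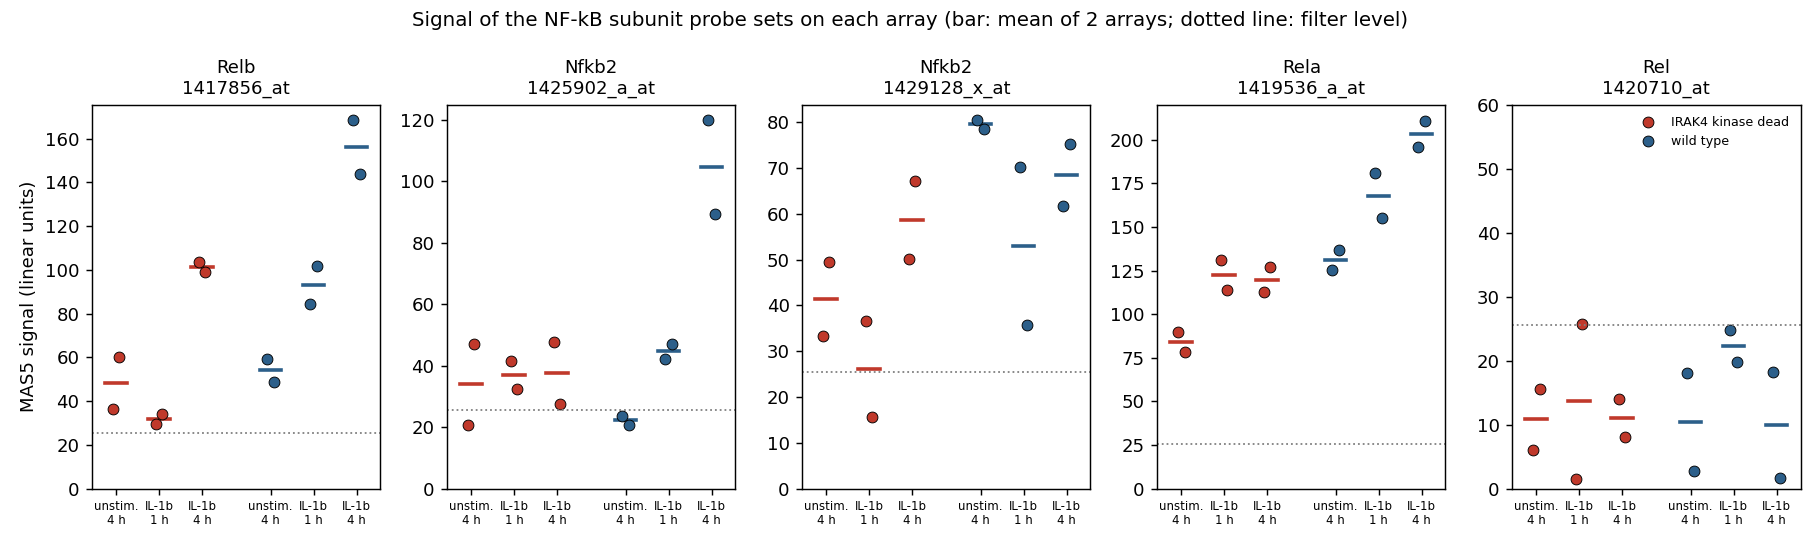
MAS5 signal (linear units) of the 5 NF-kB subunit probe sets on each of the 12 arrays, with kinase-dead groups (red) left of wild-type groups (blue) and each genotype in the order unstimulated, IL-1b 1 h, IL-1b 4 h; points are arrays, bars are means of 2 arrays and the dotted line is the filter level of 25.5. Relb is lowest in kinase-dead cells at 1 h, Nfkb2 a_at is high only in wild type at 4 h among the 6 groups, and Rela is lower in kinase-dead than in wild-type cells in each condition.

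The response to IL-1b was first asked in wild-type cells. After 4 h, 3 of the 4 tested subunit probe sets rose and none fell, where 7.52% of all probe sets were called, 938 higher and 1100 lower. The median change of the 4 was 1.00 against -0.08 over all 27086. Nfkb2 a_at averaged 104.8 ± 21.6 at 4 h and 22.3 ± 2.12 unstimulated (SD, n = 2), a log2 change of 1.88 ± 0.32 (SE; 95% interval 1.21 to 2.56; adjusted p = 0.00104 by limma), which ranked 128 of 27086 from the top. Relb averaged 156 ± 17.4 at 4 h and 54.2 ± 7.50 unstimulated, a change of 1.40 ± 0.23 (95% interval 0.92 to 1.88; adjusted p = 0.000654), rank 235. Rela averaged 203 ± 10.8 at 4 h and 131 ± 8.34 unstimulated, a smaller change of 0.60 ± 0.16 (adjusted p = 0.0302). Nfkb2 x_at had -0.20 ± 0.32 (adjusted p = 0.772).

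The calls of Nfkb2 a_at and Relb at 4 h in wild-type cells held in all 12 fits that left out 1 array. The Rela call ended without wild-type unstimulated replicate 1 (adjusted p = 0.127), wild-type 4 h replicate 1 (0.0785) or replicate 2 (0.161). It also ended without the variance trend (0.0524) and with only the compared arrays in the fit (0.093). Without wild-type unstimulated replicate 1, the array with no genotype in its title, the changes of Nfkb2 a_at and Relb were 1.96 and 1.53 (adjusted p = 0.0061 and 0.00252).

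In wild-type cells 1 h of IL-1b gave 0 passing members of 4 in limma, although 2 had an unadjusted p under 0.05, and 6.65% of all probe sets were called. Relb averaged 93.1 ± 12.6 at 1 h and 54.2 ± 7.50 unstimulated, a log2 change of 0.70 ± 0.23 (95% interval 0.22 to 1.18; adjusted p = 0.0776). Nfkb2 a_at had 0.80 ± 0.32 (adjusted p = 0.162) and Rela 0.34 ± 0.16 (adjusted p = 0.26). Nfkb2 x_at went the other way, with -0.58 ± 0.32 (adjusted p = 0.334). The Rel probe set, fitted without the low-signal filter, had 0.85 with a 95% interval of -0.48 to 2.19.

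Between 1 h and 4 h in wild-type cells 2 of the 4 rose, where 14.7% of all were called, 1922 higher and 2057 lower. Nfkb2 a_at rose by 1.08 ± 0.32 (adjusted p = 0.0294) and Relb by 0.70 ± 0.23 (adjusted p = 0.0461). The adjusted p ranged up to 0.185 for Nfkb2 and 0.251 for Relb over the fits with another setting or 1 array fewer. Both calls were lost when either array of the wild-type 1 h or 4 h group was left out, and the Relb call also without any 1 of the 4 stimulated kinase-dead arrays (adjusted p = 0.0535 to 0.0621), which enter through the shared spread. Rela had 0.27 ± 0.16 (adjusted p = 0.319) and Nfkb2 x_at 0.38 ± 0.32 (adjusted p = 0.496).

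In kinase-dead cells the same questions gave fewer calls. The adjusted p depends on all probe sets of a comparison, so a count of calls does not measure the size of a response. At 4 h Relb in kinase-dead cells had an unadjusted p of 0.000436 by limma and was not called. Rela in wild-type cells at 4 h had an unadjusted p of 0.00176 and was called. At 1 h 0 of the 4 subunit probe sets passed in limma, with 1 at an unadjusted p under 0.05, and 2.35% of all probe sets were called. Relb averaged 32 ± 3.25 at 1 h and 48.4 ± 17 unstimulated, a log2 change of -0.46 ± 0.23 (95% interval -0.94 to 0.01; adjusted p = 0.344). Rela averaged 123 ± 12.2 at 1 h and 84.1 ± 7.85 unstimulated, a change of 0.50 ± 0.16 (95% interval 0.16 to 0.85; adjusted p = 0.122). Nfkb2 a_at had 0.17 ± 0.32 and Nfkb2 x_at -0.58 ± 0.32 (adjusted p = 0.872 and 0.417).

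After 4 h in kinase-dead cells 0 of the 4 passed in limma, 2 had an unadjusted p under 0.05, and 0.406% of all probe sets were called. Relb averaged 101 ± 3.11 at 4 h and 48.4 ± 17 unstimulated, a change of 0.99 ± 0.23 (95% interval 0.51 to 1.46; adjusted p = 0.0728). When kinase-dead unstimulated replicate 2 was dropped the adjusted p was 0.0474, and when replicate 1 was dropped the change was 0.67 and was not called. Dropping wild-type unstimulated replicate 1 gave 0.0408 and dropping replicate 2 gave 0.0399; those arrays enter only through the shared spread. The highest adjusted p with 1 array fewer was 0.346, and 3 of the 12 such fits made the call. Rela had 0.47 ± 0.16 (adjusted p = 0.244), Nfkb2 a_at 0.16 ± 0.32 (95% interval -0.51 to 0.84; adjusted p = 0.897) and Nfkb2 x_at 0.44 ± 0.32 (adjusted p = 0.646).

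Between 1 h and 4 h in kinase-dead cells, Relb was the member that rose, 1 of 4. Of all probe sets 2.7% were called, 417 higher and 313 lower. The Relb change of 1.45 ± 0.23 (95% interval 0.97 to 1.93; adjusted p = 0.00176) ranked 67 of 27086 from the top, and the call held in all 12 fits that left out 1 array. Rela differed by -0.03 ± 0.16 and Nfkb2 a_at by -0.01 ± 0.32 (adjusted p = 0.957 and 0.993). Nfkb2 x_at had 1.02 ± 0.32 (adjusted p = 0.103).

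**Figure D3:**
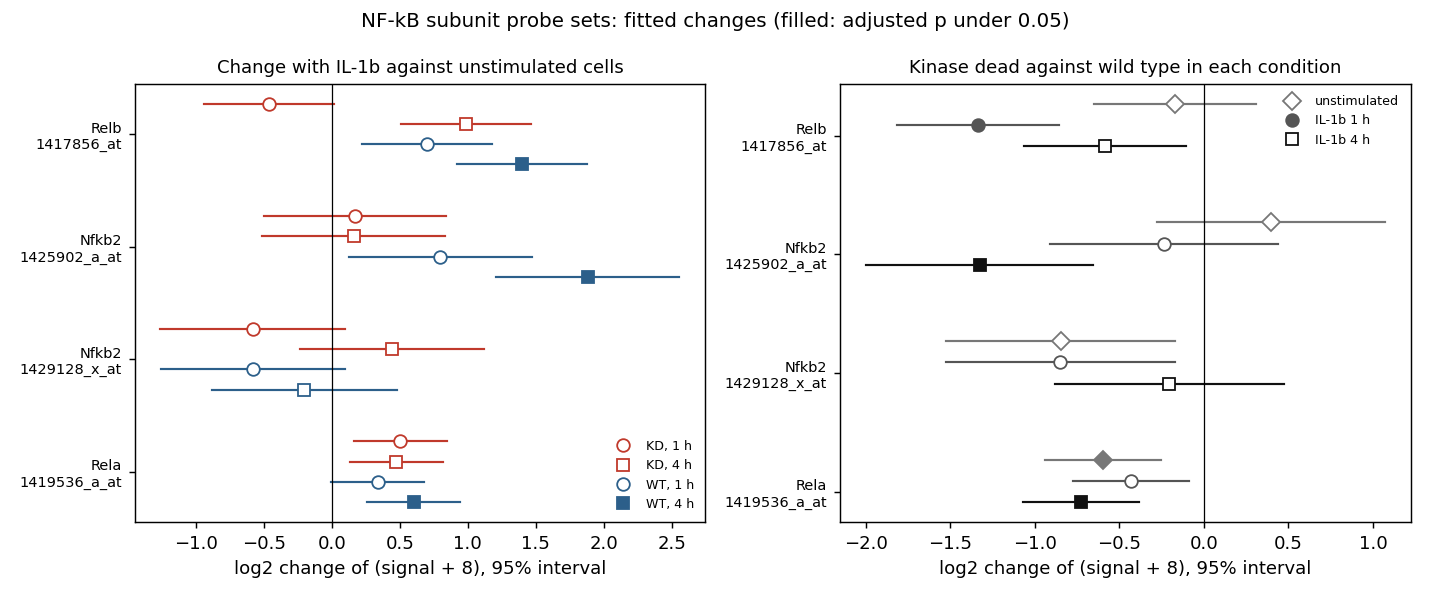
Fitted log2 changes of (signal + 8) for the 4 tested NF-kB subunit probe sets, with 95% intervals: left, IL-1b against unstimulated cells at 1 h (circles) and 4 h (squares) in kinase-dead (red) and wild-type (blue) cells; right, kinase dead against wild type when unstimulated, at 1 h and at 4 h. Filled symbols passed an adjusted p of 0.05: Relb, Nfkb2 a_at and Rela in wild type at 4 h on the left, and Relb at 1 h, Nfkb2 a_at at 4 h and Rela unstimulated and at 4 h on the right.

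The genotypes were next compared within each condition. In unstimulated cells Rela was lower in kinase-dead cells (84.1 ± 7.85) than in wild-type cells (131 ± 8.34; SD, n = 2), a log2 difference of -0.60 ± 0.16 (adjusted p = 0.0244). It was the member called of 4, that is 1 of 4 where 10.8% of all were called. Without wild-type unstimulated replicate 1 it was -0.66 (adjusted p = 0.0376). The call ended without wild-type unstimulated replicate 2 (adjusted p = 0.117) or without kinase-dead unstimulated replicate 1 (0.0555) or 2 (0.161). The actin ratio was 2.85 ± 0.0178 in unstimulated kinase-dead cells and 2.41 ± 0.385 in unstimulated wild-type cells. The Gapdh ratio was 1.53 ± 0.069 and 1.43 ± 0.284, and the part of these ratios in the Rela difference was not tested. Nfkb2 x_at had -0.85 ± 0.32 (adjusted p = 0.107), Nfkb2 a_at 0.40 ± 0.32 (adjusted p = 0.495) and Relb -0.17 ± 0.23 (adjusted p = 0.709).

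After 1 h of IL-1b Relb was lower in kinase-dead cells, at 32 ± 3.25 against 93.1 ± 12.6 in wild-type cells (SD, n = 2). The log2 difference was -1.33 ± 0.23 (95% interval -1.81 to -0.86; adjusted p = 0.000593), and the call held in all 12 fits that left out 1 array. It was 1 of 4 members called where 10.5% of all were called. Rela had -0.43 ± 0.16 (adjusted p = 0.114) and Nfkb2 a_at -0.23 ± 0.32 (adjusted p = 0.746). Nfkb2 x_at had -0.85 ± 0.32 (adjusted p = 0.113), and over the 12 fits with 1 array fewer it ran from -1.31 (adjusted p = 0.0396, without kinase-dead 1 h replicate 1) to -0.39 (0.640, without replicate 2 of that group). It also passed without wild-type 1 h replicate 2 (0.0437).

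After 4 h, 2 of the 4 members were lower in kinase-dead cells, where 16.7% of all were called, 2647 higher and 1883 lower. Nfkb2 a_at averaged 37.7 ± 14.1 in kinase-dead cells and 104.8 ± 21.6 in wild-type cells, a difference of -1.33 ± 0.32 (95% interval -2.00 to -0.65; adjusted p = 0.00742). The call was lost without kinase-dead 4 h replicate 2 (adjusted p = 0.113) or wild-type 4 h replicate 1 (0.0839). Rela averaged 120 ± 10.3 in kinase-dead cells and 203 ± 10.8 in wild-type cells, a difference of -0.73 ± 0.16 (adjusted p = 0.00442; 0.0576 without kinase-dead 4 h replicate 1). Relb averaged 101 ± 3.11 in kinase-dead cells and 156 ± 17.4 in wild-type cells. The difference of -0.59 ± 0.23 did not pass (adjusted p = 0.0918). Its arrays did not overlap, which groups of 2 arrays can also do by chance. Nfkb2 x_at averaged 58.7 in kinase-dead and 68.5 in wild-type cells, a difference of -0.20 ± 0.32 (adjusted p = 0.744).

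Averaged over the 3 conditions, a comparison added after the values were seen, 3 of the 4 probe sets were lower in kinase-dead cells. Of all probe sets 26.5% were called, 4120 higher and 3053 lower. Rela differed by -0.58 ± 0.09 (adjusted p = 0.000131) and Relb by -0.70 ± 0.13 (adjusted p = 0.000597), and both calls held in all 22 other fits. Nfkb2 x_at differed by -0.63 ± 0.19 (adjusted p = 0.0166), with an adjusted p of 0.0553 to 0.0705 without wild-type 1 h replicate 1, kinase-dead unstimulated replicate 1, kinase-dead 1 h replicate 2 or kinase-dead 4 h replicate 1. Nfkb2 a_at had -0.39 ± 0.18 (adjusted p = 0.138). Leaving out kinase-dead unstimulated replicate 2 gave -0.55 (adjusted p = 0.0354), and leaving out replicate 1 gave -0.23 (0.388). The median of all probe sets was 0.03. By condition the Relb difference was -0.17 unstimulated, -1.33 at 1 h and -0.59 at 4 h, and was called at 1 h alone. The summed macrophage markers (660 to 776 in kinase-dead and 285 to 319 in wild-type cells) and neural markers (645 to 748 and 387 to 475) were higher in kinase-dead cells without overlap, and their part in these differences was not tested.

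Whether the response to IL-1b itself differed by genotype was asked with the difference of the responses, kinase dead minus wild type. At 1 h 0 of the 4 members passed in limma, 1 had an unadjusted p under 0.05, and 0.366% of all probe sets were called. Relb had the lowest value, -1.17 ± 0.32 (95% interval -1.84 to -0.49; unadjusted p = 0.00206, adjusted p = 0.228). The adjusted p of Relb ranged from 0.074 to 0.596 over the 22 other fits. For Rela the difference was 0.17 with an interval of -0.32 to 0.65.

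At 4 h 0 of the 4 passed in limma, 1 had an unadjusted p under 0.05, and 1.73% of all were called. Nfkb2 a_at had -1.72 ± 0.45 (95% interval -2.67 to -0.77; adjusted p = 0.0669). Leaving out kinase-dead unstimulated replicate 1 gave -2.19 (adjusted p = 0.0201), and leaving out replicate 2 gave -1.25 (0.285); their signals were 20.7 and 47.2. Relb had -0.42 ± 0.32 (95% interval -1.09 to 0.26; adjusted p = 0.595), Rela -0.13 ± 0.23 (95% interval -0.61 to 0.36; adjusted p = 0.851) and Nfkb2 x_at 0.64 ± 0.45 (adjusted p = 0.556). A genotype difference in the Rela response was not detected with 2 arrays a group, and differences within the intervals given are not excluded.

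The IkB proteins and coregulators, which hold or steer the subunits, are the other family of the pathway. Of 6 listed genes 5 were tested, each by its brightest probe set. After 4 h of IL-1b 3 rose and 0 fell in kinase-dead cells (median 1.64, against 0.01 over all). In wild-type cells 4 rose and 0 fell (median 2.14, against -0.08 over all). The shares of all probe sets called were 0.406% and 7.52%. Nfkbiz, a nuclear coregulator gene, rose by 2.79 ± 0.09 in kinase-dead and 3.47 ± 0.09 in wild-type cells, and Nfkbie, the gene of IkB-epsilon, by 1.99 ± 0.21 and 3.61 ± 0.21. Nfkbia, the gene of IkB-alpha, rose by 1.64 ± 0.14 and 2.14 ± 0.14. Bcl3, whose product binds p50 and p52 homodimers, had 1.21 ± 0.30 in both genotypes and passed in wild-type cells alone (adjusted p = 0.102 in kinase-dead and 0.0177 in wild-type cells; adjusted p of the difference of responses, 0.999). At 1 h 2 rose in kinase-dead cells and 3 in wild-type cells, where 2.35% and 6.65% of all probe sets were called. By the difference of responses, Nfkbiz (-2.95 ± 0.13) and Nfkbia (-1.49 ± 0.20) responded less in kinase-dead cells at 1 h. Both passed an adjusted p of 0.05 in limma, as 0.366% of all probe sets did. At 4 h the difference of responses was called lower for 2 of the 5, where 1.73% of all were called.

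Among 12 genes that control NIK, processing and degradation, 10 were tested. At 4 h 2 rose and 0 fell in kinase-dead cells, and 3 rose and 0 fell in wild-type cells. Tnfaip3, the gene of the feedback inhibitor A20, rose by 1.18 ± 0.15 in kinase-dead and 3.47 ± 0.15 in wild-type cells. Birc3, the gene of cIAP2, which takes part in degrading NIK, rose by 1.06 ± 0.19 and 1.50 ± 0.19. Fbxw11, a ubiquitin ligase subunit gene, rose by 0.25 ± 0.07 in wild-type cells. The Fbxw11 probe set has the suffix x_at, so it may also bind other transcripts. Of the 10 tested kinases and adaptors upstream of the subunits, 0 passed in limma at 4 h in either genotype, and 0 at 1 h. Of all probe sets, 0.406% in kinase-dead and 7.52% in wild-type cells were called at 4 h. At 1 h these shares were 2.35% and 6.65%, so 0 of 10 does not set these genes apart from the rest. Map3k14, the gene of NIK, had 0.66 ± 0.50 in kinase-dead and -0.05 ± 0.50 in wild-type cells at 4 h.

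Of the 9 tested coactivators and nuclear partners, 0 passed at 4 h in either genotype, which at those shares does not set them apart either. The Rel-domain relatives outside NF-kB, the NFAT genes and Rbpj, were all 6 tested. At 4 h 0 passed in kinase-dead cells, while in wild-type cells Rbpj, the DNA-binding factor of Notch signalling, rose by 0.82 ± 0.10 and Nfatc4 fell (-0.76 ± 0.18). At 1 h Nfatc1 fell in both genotypes, with changes of -1.04 ± 0.17 in kinase-dead and -0.94 ± 0.17 in wild-type cells. The 4 subunit probe sets had median 4 h changes of 0.46 in kinase-dead and 1.00 in wild-type cells. These count Nfkb2 by 2 probe sets, whereas each list gene has 1, so the medians are not directly comparable. By the brightest probe set of each gene, Relb, Rela and Nfkb2 had 0.99, 0.47 and 0.44 in kinase-dead cells. In wild-type cells these were 1.40, 0.60 and -0.20.

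**Figure D4:**
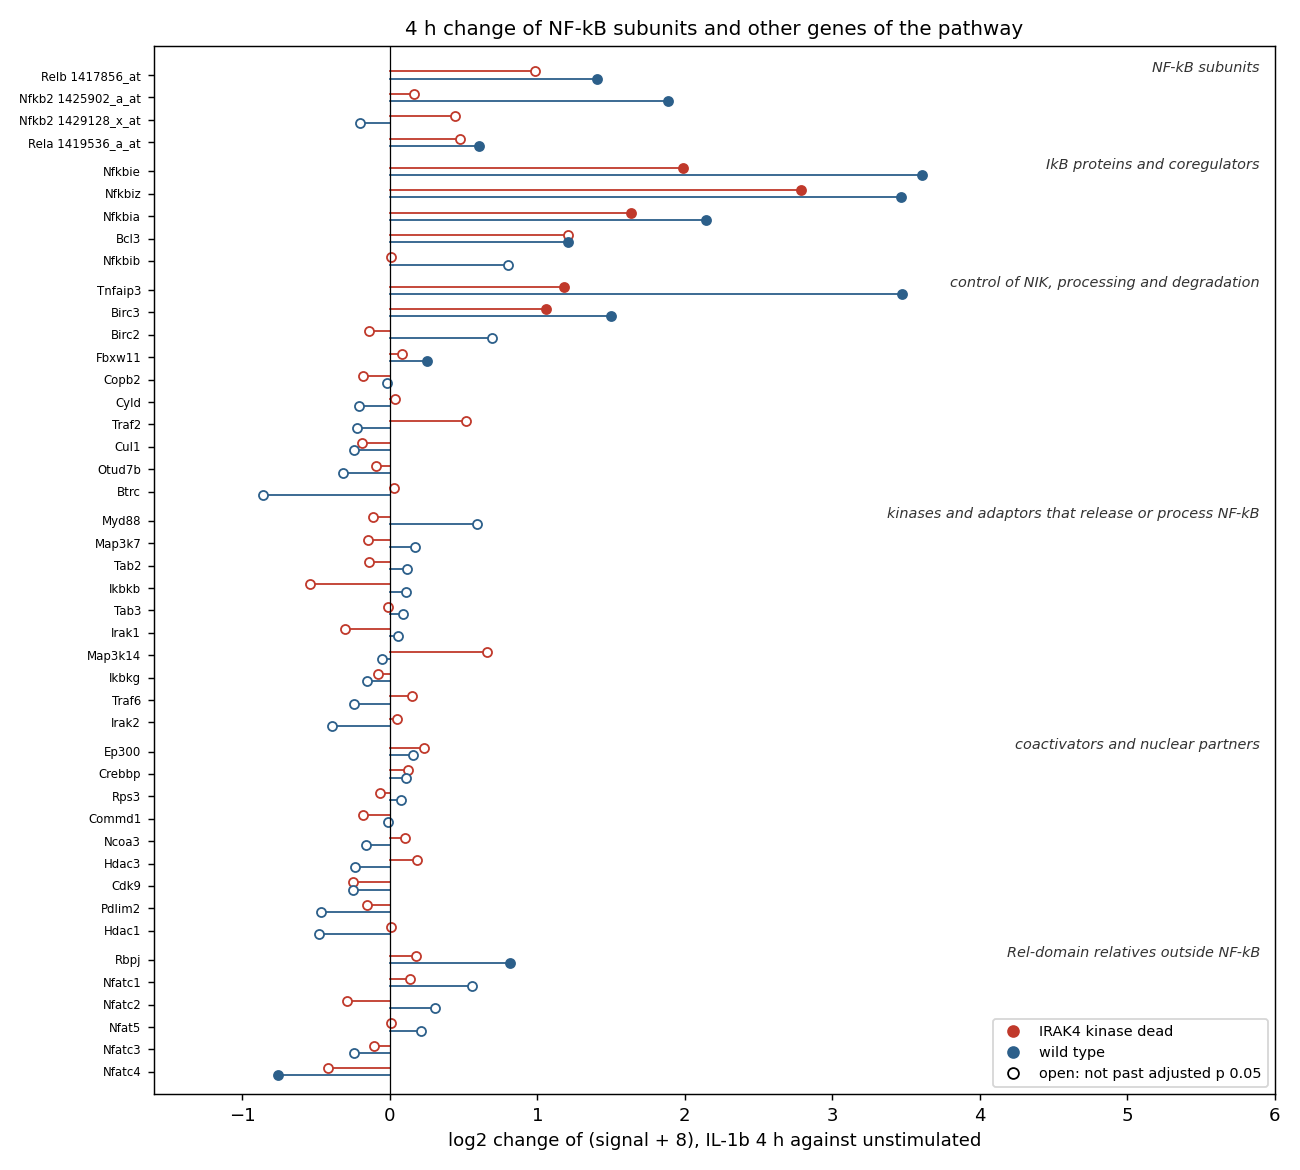
Log2 change of (signal + 8) after 4 h of IL-1b against unstimulated cells for the 4 tested NF-kB subunit probe sets and the other pathway genes by list, in kinase-dead (red, upper) and wild-type (blue, lower) cells; filled points passed an adjusted p of 0.05. The called rises are Nfkbie, Nfkbiz, Nfkbia, Tnfaip3 and Birc3 in both genotypes, and Nfkb2 a_at, Relb, Rela, Bcl3, Fbxw11 and Rbpj in wild-type cells.

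The kB-type letters of the Nfkb2 and Rel windows also occur among these genes. A match to GGNNNTTCC was found in 4 of 5 IkB and coregulator genes with a window, Bcl3, Nfkbia, Nfkbid and Nfkbie. The other lists held it in 7 of 9 genes that control processing and degradation, 3 of 10 kinases and adaptors, 3 of 5 Rel-domain relatives and 0 of 5 coactivators. It occurs in 20.7% of all 27025 genes with a window. The stricter GGANTTTCC, in 1.45% of all genes, was found in 1 of 5 of that first list (Nfkbia), in 3 of 9 genes that control processing and degradation (Tnfaip3, Cyld and Fbxw11) and in 2 of 10 kinases and adaptors (Map3k7 and Myd88). It was in 0 of 5 coactivator genes and 0 of 5 Rel-domain relatives with a window.

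The genes most like each member were taken by Pearson correlation of log2 values over the 6 group means, among 12434 other genes. For Relb these were Brd1 (0.98), Sav1 (0.98) and Pla2g2e (0.98), with 0.78, 0.50 and 0.26 over the 12 arrays. For Rela they were Dcun1d5 (0.996), Gm26910 (0.99) and Phyh (0.99), with 0.76, 0.73 and 0.75 over the 12 arrays. For Nfkb2 x_at, the brighter of the pair, they were Thg1l, Tnnc2 and Cnnm1 (0.99 each), with 0.82, 0.46 and 0.59 over the 12 arrays. The other Nfkb2 probe set, added after its values were seen, was most like Dhh, Angptl4 and Zeb1 (0.99, 0.99 and 0.98), with 0.52, 0.88 and 0.89 over the 12 arrays. Among the members, Relb and Nfkb2 a_at had 0.73 over the group means and 0.72 over the 12 arrays, and Relb and Rela 0.71 and 0.63. With 6 points and 12434 genes such values are a description only.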

How the data were processed

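RNA of 12 fibroblast samples was measured on 1-colour Affymetrix arrays. The deposited values are MAS5 signal intensities per the submitters' processing notes, 1 per probe set and array; no version is recorded there. Per the labels, targets were labelled by a NuGEN Ovation protocol. All arrays have a mean of 150 after 2% is trimmed from each end. Of 45101 probe sets, 64 controls were left out; 34945 carry 1 symbol in the platform annotation, 932 several and 9160 are not listed. A model of 6 group means was fitted to log2(signal + 8) with limma 3.58.1 in R 4.3.3 (eBayes with a trend, 6 residual degrees of freedom, two-sided), without further normalization, over 27086 probe sets. Fits were tested on simulated data. The number of arrays limits the precision.

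All subunit probe sets are described. Other genes come from 5 pathway lists and 7 marker lists, each gene by its brightest probe set; likeness takes 3 genes a member. The members and lists were chosen with earlier results of these data known. A planned protein search was not used here. The comparison over all 3 conditions was added after values were seen. Alternatives covered the pseudocount, filter, normalization, variance trend, arrays in the fit, 1 probe set a gene, replicate block and each array left out. Same-numbered arrays did not deviate together (correlations of -0.03 to 0.07 over 15 pairs of groups), so numbers were not taken as pairs. Python 3.11.15 and matplotlib 3.10.9 drew the figures.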

Additional observations from a re-analysis of the deposited data

Results flagged for a closer look

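Relb was picked out because its arrays lay on opposite sides of their controls at 1 h: both kinase-dead arrays (29.7 and 34.3) were below their unstimulated controls (36.4 and 60.4), and both wild-type arrays (84.2 and 102) were above theirs (59.5 and 48.9). Neither change passed limma, with -0.46 in kinase-dead cells (adjusted p = 0.344) and 0.70 in wild-type cells (adjusted p = 0.0776). The difference of the responses was -1.17 on the log2 scale and did not pass either (adjusted p = 0.228).

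Nfkb2 x_at was picked out for the same reason at 4 h: both kinase-dead arrays (50.2 and 67.2) were above their controls (33.3 and 49.4), and both wild-type arrays (61.7 and 75.3) were below theirs (80.6 and 78.6). Neither change passed limma, with 0.44 ± 0.32 in kinase-dead cells (adjusted p = 0.646) and -0.20 ± 0.32 in wild-type cells (adjusted p = 0.772). Nor did the difference of the responses, 0.643 on the log2 scale (adjusted p = 0.556).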

How the results depend on the processing

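Over 22 alternatives, 999 of 1044 fold changes stayed on their side of the threshold, 35 lost the call and 10 gained it; none that passed in either fit changed sign, while 16 that passed in neither did. For 4 h against 1 h in wild-type cells the count of 2 members became 1 with 1 probe set a gene, which leaves out Nfkb2 a_at. It also became 1 with a pseudocount of 1 and with the replicate block, and 0 without the filter and without the variance trend. The cause of these other changes was not tested. Under the replicate block Relb had an adjusted p of 0.0518 there, and no other call of a member changed. For the difference of responses at 4 h the count of 0 became 1 with a pseudocount of 32 or quantile normalization (Nfkb2 a_at, adjusted p = 0.0364 and 0.0459). For kinase dead against wild type, the 4 h count of 2 became 1 with 1 probe set a gene, which leaves out Nfkb2 a_at. With only the compared arrays in the fit the 4 h count became 3 (Relb, adjusted p = 0.0305) and the unstimulated count of 1 became 0. The count of 3 in wild-type cells at 4 h became 2 with that setting and without the variance trend. It also became 2 with 1 probe set a gene, which again leaves out Nfkb2 a_at. Leaving out 1 array gave counts of 0 to 1 for kinase-dead 4 h, 2 to 3 for wild-type 4 h, 0 to 2 for wild-type 4 h against 1 h, 0 to 1 for the response difference at 4 h, and, for kinase dead against wild type, 0 to 1 unstimulated, 1 to 2 at 1 h, 1 to 2 at 4 h and 2 to 4 over all conditions. Signals near 25.5, as for Rel, limit what can be read.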
